A study of Mus musculus with 7 samples.

Results

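The genes described here were the mouse cytochrome P450 genes of families Cyp1 to Cyp4, chosen by symbol alone (Cyp, a family number from 1 to 4, a subfamily letter and a gene number, pseudogene symbols left out). The rule took 82 of the 55357 features in the deposited matrices. Their transcripts were followed in hepatocyte-like cells, tumour cells and immune cells of livers in which an in situ hepatocellular carcinoma had been induced. Plasmids encoding Nras and C-myc, the oncogenes that start the tumours, were delivered to mice by hydrodynamic tail vein injection, a rapid injection of a large volume that drives DNA into liver cells. All 7 samples carried both oncogenes and were taken 2 weeks after injection. The 3 control samples received no further plasmid, and the 4 treated samples also received a plasmid expressing IL-2/CD25, named for a T cell growth factor and a chain of its receptor. No healthy liver was among the samples. The labels describe the tissue as HCC tissue, give 1 batch for the whole series, and do not state strain, sex or age. Nor do they say that the samples came from separate animals, so the p-values below measure the spread between these samples, which may be technical.

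Cytochrome P450 enzymes of these families are haem proteins of the endoplasmic reticulum that insert an oxygen atom into drugs, toxins, steroids, bile acids and fatty acids, taking electrons from the reductase Por and from cytochrome b5. Hepatocytes are their best known site, where nuclear receptors and HNF4A keep them high and where many are confined to one zone of the lobule. Loss of these enzymes is a known feature of dedifferentiated liver tumours. Family 4 is the partial exception, since several of its members hydroxylate fatty acids and leukotrienes outside the liver, and mouse Cyp4f18 is known as a leukotriene B4 hydroxylase of neutrophils.

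Promoters of 4 members are shown because the results turn on the contrast between them. Cyp3a11 and Cyp2c70 were among the higher members in hepatocyte-like barcodes of treated samples, where Cyp2e1 was highest. Cyp4f16 was highest in tumour barcodes of the controls, where Cyp3a13 lay above Cyp4f18. In most immune classes Cyp4f16 or Cyp4f18 was the highest member. Each sequence is the 250 bases before the annotated start, from RefSeq on GRCm38.p6, read 5′ to 3′ on the gene's strand. They are Cyp3a11 at chr5:145879855-145880104 (minus strand), Cyp2c70 at chr19:40187287-40187536 (minus strand), Cyp4f16 at chr17:32536307-32536556 (plus strand) and Cyp4f18 at chr8:72009627-72009876 (minus strand). Capitals mark CAAAGTCCA, an HNF4-type motif, or GAGGAAGT, a PU.1-type motif, which reads ACTTCCTC where it lies on the other strand. PU.1 is a myeloid and B cell factor.
Cyp3a11: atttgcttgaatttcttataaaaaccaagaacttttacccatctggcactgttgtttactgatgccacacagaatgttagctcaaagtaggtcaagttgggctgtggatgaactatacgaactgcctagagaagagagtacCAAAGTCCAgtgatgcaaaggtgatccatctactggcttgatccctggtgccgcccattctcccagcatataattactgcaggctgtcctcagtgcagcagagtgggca
Cyp2c70: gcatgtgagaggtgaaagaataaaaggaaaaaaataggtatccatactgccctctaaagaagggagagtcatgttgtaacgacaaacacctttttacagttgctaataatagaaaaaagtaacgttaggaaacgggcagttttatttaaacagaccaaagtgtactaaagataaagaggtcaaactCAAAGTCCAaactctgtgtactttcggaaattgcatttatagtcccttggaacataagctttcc
Cyp4f16: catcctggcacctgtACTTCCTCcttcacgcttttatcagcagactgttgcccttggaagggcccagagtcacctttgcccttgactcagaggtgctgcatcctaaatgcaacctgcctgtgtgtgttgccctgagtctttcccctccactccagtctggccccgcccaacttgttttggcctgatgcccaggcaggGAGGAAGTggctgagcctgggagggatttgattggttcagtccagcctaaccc
Cyp4f18: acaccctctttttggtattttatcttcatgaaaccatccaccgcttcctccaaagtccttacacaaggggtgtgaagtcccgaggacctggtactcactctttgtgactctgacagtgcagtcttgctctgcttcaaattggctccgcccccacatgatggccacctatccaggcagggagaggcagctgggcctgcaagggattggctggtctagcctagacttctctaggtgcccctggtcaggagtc

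The HNF4-type motif began 109 bases before the Cyp3a11 start and 64 bases before the Cyp2c70 start. The PU.1-type motif was in the Cyp4f16 window at 53 bases before the start on the gene's strand and at 235 bases before it on the other strand, and neither motif was in the Cyp4f18 window. Both motifs were searched on both strands. The HNF4-type motif was in 10 of the 66 members with a promoter in the table, beside 0.451% of 27025 genes. All 10 belong to Cyp2c (Cyp2c40, Cyp2c65, Cyp2c67, Cyp2c68, Cyp2c69 and Cyp2c70) or Cyp3a (Cyp3a11, Cyp3a16, Cyp3a41a and Cyp3a41b), whose genes are close relatives of each other and are not independent cases. Cyp2e1, the highest member of hepatocyte-like barcodes, was not among these 10. Of the 10, Cyp3a11, Cyp2c70, Cyp2c68 and Cyp2c67 had 551, 181, 45 and 43 counted molecules in hepatocyte-like barcodes of treated samples. Cyp2c40, Cyp2c69 and Cyp2c65 had 4, 2 and 1 there, and Cyp3a16, Cyp3a41a and Cyp3a41b had 0. The 3′ ends of Cyp3a41a and Cyp3a41b are 100% shared, so their 0 is uncertain. The PU.1-type motif was in 6 of 66 members, beside 2.79% of genes. Those 6 were Cyp2a4, Cyp2a5, Cyp2a12, Cyp4f16, Cyp4f37 and Cyp4v3. A match describes letters in a window and not a bound site.

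Barcodes were kept with at least 500 unique molecular identifiers (UMIs, counted molecules), 200 genes and under 20% mitochondrial UMIs. They numbered 7263 to 9520 per control sample and 7244 to 10439 per treated sample. The controls were deeper, with 76438139 to 181755269 UMIs per sample against 37653600 to 47881379 in treated samples. Pairs of samples shared between 14 and 37 barcode sequences. Hepatocyte-like barcodes were those in which 12 secreted or transport protein genes of hepatocytes, none of them a P450 gene, made up at least 2% of UMIs. Keratin-high barcodes held at least 10 UMIs of Krt8 and Krt18, and this rule came first where a barcode met both. The remaining classes were assigned by immune and stromal markers, again with no P450 gene. Levels below are CPM, the summed UMIs of a gene in a sample and class, scaled so that all genes of that sum have the same total. The kit reads the 3′ end of transcripts, so transcript length does not enter the levels.

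Hepatocyte-like barcodes were nearly absent from the control samples, which decides what can be compared. Hepatocyte-like barcodes numbered 2, 2 and 0 in control 1 to 3, and 22, 96, 143 and 20 in treated 1 to 4. Their median depth in treated samples was 1645 UMIs, their median mitochondrial share was 0.101%, and 19.2% of them held a UMI of the leukocyte gene Ptprc. Keratin-high barcodes numbered 684, 419 and 2562 in controls and 56, 15, 75 and 5 in treated samples. Of these, 17 in controls and 15 in treated samples also met the hepatocyte marker rule. In controls, 99.0% of the 3665 keratin-high barcodes had at least 3 UMIs of Nras and Myc together, at a median depth of 35200 UMIs. The same was true of 54.6% of control monocytes and macrophages (median 11070 UMIs), 59.7% of conventional dendritic cells (15100 UMIs) and 76.7% of stellate barcodes (21510 UMIs). These UMIs include the mouse's own Nras and Myc, so the share does not show which barcodes carried the plasmids, and the control barcodes are called tumour cells here after the keratin rule. In treated samples 22.5% of 151 keratin-high barcodes had those UMIs at a median depth of 17340, 73.5% had a UMI of the biliary gene Epcam, and they are called keratin-high here. Hepatocyte-like cells therefore came from treated samples and tumour cells from controls, and the cell type and the plasmid group cannot be told apart in their comparison.

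Of the 82 members, 66 had at least 1 UMI in kept barcodes and 16 had none. Among those with UMIs, 10 had 1 to 3 in the whole series and 32 had at least 100. In controls the members held 64272 UMIs, of which 59.4% were in immune barcodes and 27.7% in tumour cells. In treated samples they held 24301 UMIs, with 58.7% in immune barcodes, 14.9% in hepatocyte-like barcodes and 15.6% in keratin-high barcodes. The heat map of members by class shows the 43 genes with at least 20 UMIs. A few family 4 genes were present across nearly every class, and a long list of family 2 and 3 genes was high in hepatocyte-like barcodes.

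**Figure D1:**
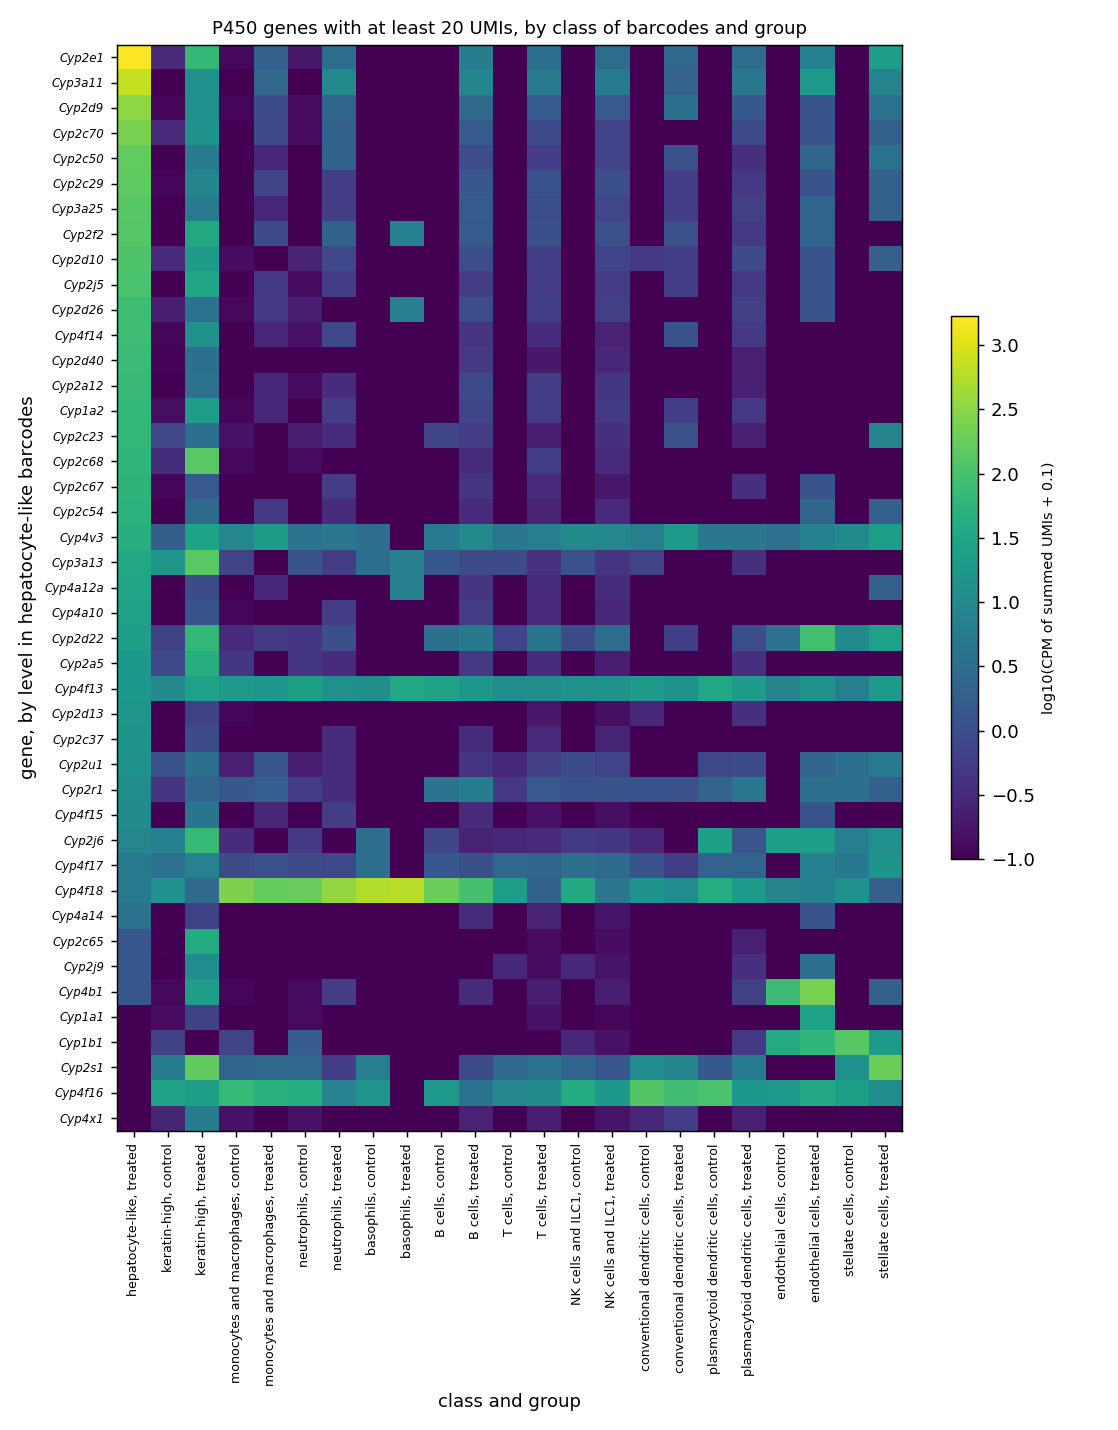
Level of 43 P450 genes (those with at least 20 UMIs) in each class of barcodes and group, as log10 of CPM of summed UMIs plus 0.1. Genes are ordered by their level in hepatocyte-like barcodes of treated samples, where Cyp2e1 and Cyp3a11 lead. Cyp4f18 leads in basophils, monocytes, neutrophils and B cells, and Cyp4f16 in conventional dendritic cells.

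Hepatocyte-like barcodes of treated samples carried most of the hepatic repertoire. The summed P450 level was 3559, 3668, 5401 and 4064 CPM in treated 1 to 4, against 91.9, 96.9 and 89.3 CPM in tumour cells of control 1 to 3. Of the members, 46 had a UMI there, 39 had more than 3 and 30 reached 10 CPM. By subfamily, Cyp2e held 35.9% of the member UMIs, Cyp3a 18.98%, Cyp2c 17.6% and Cyp2d 13.4%. In tumour cells the order was different, with Cyp4f at 59.0%, Cyp3a at 18.6%, Cyp2j at 7.73% and Cyp2s at 6.70%.

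Cyp2e1, the oxidase of ethanol and paracetamol, was the highest member. Its level was 1286, 1275, 2022 and 948 CPM in treated 1 to 4, against 0.250, 0.370 and 0.194 CPM in control tumour cells. The groups were far apart in every sample. On summed UMIs the ratio was 7517-fold (95% counting interval 5567 to 10400). A Cyp2e1 UMI was found in 64.8% of the 281 hepatocyte-like barcodes, against 1.15% of control tumour barcodes, which had a median of 35200 UMIs against 1645.

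Cyp3a11, the main drug-oxidising Cyp3a enzyme of mouse liver and a PXR target, came second. It stood at 407, 598, 811 and 674 CPM in hepatocyte-like barcodes, all 4 samples well above tumour cells. Control tumour cells held 1 Cyp3a11 UMI among 196761240, which gives a ratio of 140500 with a counting interval from 25110 to 5560000. Its relative Cyp3a25 stood at 42.9, 106, 151 and 164 CPM, with treated 1 lowest. No Cyp3a25 UMI was found in tumour cells, so its level there was at least 8671-fold lower (taking 3 counts in the whole group as the floor).

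The Cyp2c genes, which epoxidise fatty acids and hydroxylate steroids and bile acids, gave the longest list. Cyp2c70, which makes the muricholic acids of mouse bile, stood at 343, 123, 262 and 383 CPM in hepatocyte-like barcodes. In control tumour cells it was at 0.167, 0.370 and 0.201 CPM, a ratio of 1099 (782 to 1576). Cyp2c50 stood at 343, 141, 167 and 91.1 CPM, with 1 UMI in tumour cells and a ratio of 32390 (5709 to 1289000). Cyp2c29, an arachidonic acid epoxygenase, stood at 150, 92.4, 185 and 128 CPM and exceeded tumour cells 7459-fold (2837 to 27830). None of these groups overlapped. Cyp2c54 ran from 17.6 to 74.6 CPM and was not found in tumour cells, at least 3485-fold lower. Cyp2c23 was the least reduced of the higher Cyp2c genes, at 42.9, 79.2, 63.3 and 54.7 CPM and 96.3-fold (68.4 to 134) above tumour cells. Reads of Cyp2c40, Cyp2c67, Cyp2c68 and Cyp2c69 are uncertain, because 23.1% to 49.9% of the 90-base windows at their 3′ ends are shared with a relative. Cyp2c68 was at 35.2 to 91.1 CPM and 225-fold (147 to 343) above tumour cells under that limit.

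Among Cyp2d genes, relatives of the human debrisoquine hydroxylase, Cyp2d9 led. It stood at 257, 286, 341 and 310 CPM and at 15620-fold (6023 to 57780) over the 4 UMIs of tumour cells. Cyp2d10 ran from 42.9 to 164 CPM, Cyp2d26 from 21.4 to 146 CPM and Cyp2d40 from 42.9 to 97.1 CPM. Cyp2d10 and Cyp2d26 were lowest in treated 1 and highest in treated 4. Their ratios to tumour cells were 499 (344 to 731), 632 (392 to 1050) and 7395 (1957 to 62520, on 2 tumour UMIs). Cyp2d22 stood lower, at 42.9, 17.6, 20.3 and 36.5 CPM and 38.7-fold (21.8 to 64.8) above tumour cells.

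The remaining named hepatic members covered several functions. Cyp2f2, which activates naphthalene and marks periportal hepatocytes, stood at 64.3, 141, 104 and 328 CPM and had no tumour UMI, at least 8415-fold lower. Cyp2j5, an arachidonic acid epoxygenase, stood at 42.9, 110, 124 and 0 CPM and had no tumour UMI, at least 6970-fold lower. Treated 4, with 20 hepatocyte-like barcodes, thus had the highest Cyp2f2 and no Cyp2j5. Cyp1a2, an aryl hydrocarbon receptor target, stood at 64.3, 61.6, 74.6 and 18.2 CPM, 1445-fold (705 to 3339) above tumour cells. Cyp2a12, a steroid hydroxylase, stood at 42.9, 57.2, 81.3 and 72.9 CPM, with a ratio of 14030 (2415 to 563900) on 1 tumour UMI. Cyp4f14, a leukotriene and vitamin E hydroxylase, ran from 21.4 to 104 CPM and was 3953-fold (1468 to 14960) above tumour cells. Cyp4v3, a fatty acid hydroxylase, ran from 21.4 to 72.9 CPM and exceeded tumour cells less, 26.9-fold (18.4 to 38.2).

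**Figure D2:**
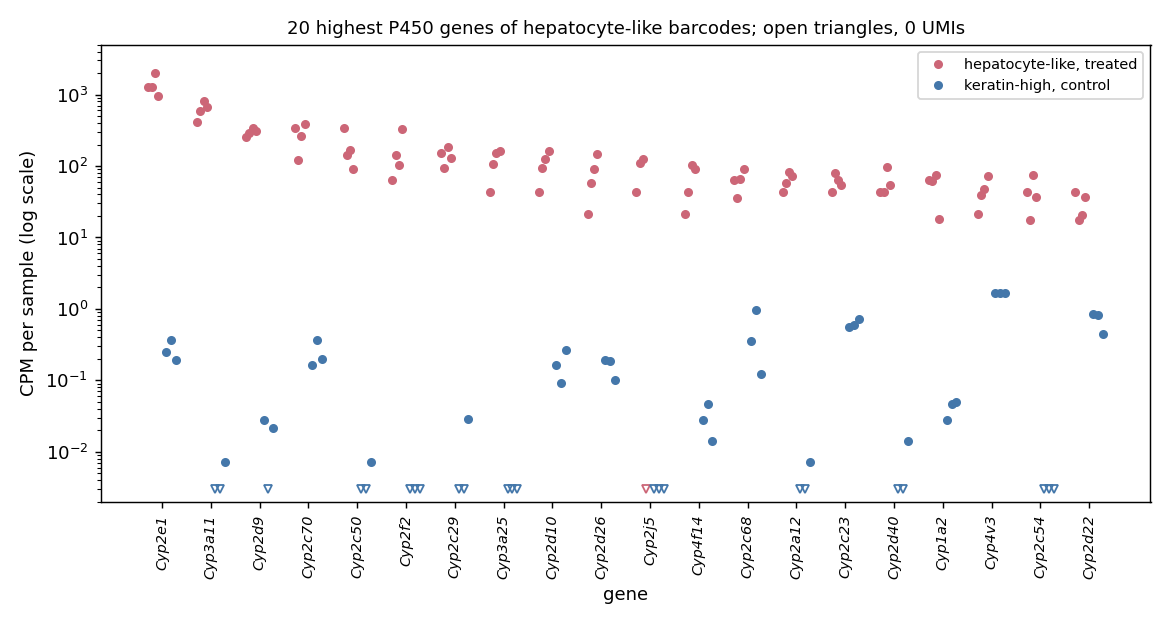
CPM per sample (log scale) of the 20 highest P450 genes of hepatocyte-like barcodes, in hepatocyte-like barcodes of the 4 treated samples and in keratin-high barcodes of the 3 control samples. Open triangles stand for 0 UMIs. The 2 sets of points are separated for each gene except at Cyp2j5, where treated 4 is at 0 too.

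Over all genes, 21 members could be tested between hepatocyte-like and tumour sums. The test called 19 higher and 1 lower in hepatocyte-like barcodes, beside 32.9% higher and 40.7% lower among 6357 genes. Low sums are dropped before such a test, so most of those 21 entered only through their hepatocyte-like level, and the count is a description. By UMIs, 39 members had more than 3 in hepatocyte-like barcodes. Of these, 12 had 0 UMIs in control tumour cells, 6 had 1 to 3 and 21 had more than 3, although the tumour sum was far larger (196761240 against 771567 UMIs).

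In a few members the difference was small or went the other way. Cyp4f16 had 0 of 771567 hepatocyte-like UMIs in treated samples, against 27.3, 24.7 and 26.4 CPM in tumour cells of control 1 to 3. Its hepatocyte-like level was at least 6.79-fold lower. The 15 treated keratin-high barcodes with hepatocyte markers, which are outside that sum, held 9 Cyp4f16 UMIs. That is 19.6 (8.98 to 37.3) CPM, near the tumour level, and all 9 came from treated 3. Cyp4f18 had 4 hepatocyte-like UMIs and a ratio of 0.386 (0.105 to 0.988) to tumour cells. Cyp3a13, a PXR-responsive Cyp3a gene also known from intestine, stood at 0, 52.8, 24.9 and 36.5 CPM in hepatocyte-like barcodes and at 17.3, 21.4 and 16.0 CPM in tumour cells. The ratio on summed UMIs was 1.92 (1.24 to 2.84, counting error only). Between samples the groups overlapped, and the log2 difference of 0.78 (SE 0.41) did not pass the test (adjusted p 0.0958 by edgeR's quasi-likelihood test). Without treated 2 it turned to -0.12. Counting intervals of the ratio included 1 for Cyp2j6 (1.30, 0.521 to 2.68) and Cyp4f17 (1.36, 0.371 to 3.51), on 7 and 4 hepatocyte-like UMIs. For Cyp4f13 the ratio was 1.85 (1.01 to 3.11) on 14. Cyp2s1, known from epithelia outside the liver, had no hepatocyte-like UMI and stood at 5.22, 5.96 and 6.31 CPM in tumour cells, a bound of only 1.56-fold.

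Within the treated libraries themselves, 31 members could be tested between hepatocyte-like and immune sums of the same samples. The test called 26 higher and 2 lower in hepatocyte-like barcodes, beside 14% higher and 40.5% lower among 14719 genes. Members low in immune sums entered only through their hepatocyte-like level, so this count too is a description. Without the low-count filter 57 members were tested, of which 40 were higher and 2 lower. The 2 lower were Cyp4f18, by 2.78 on the log2 scale (SE 0.63, adjusted p 4.11e-05 by edgeR's quasi-likelihood test), and Cyp4f16, without a UMI. Cyp2e1 was 9.06 higher (SE 0.34), Cyp2c70 8.16 higher (SE 0.33) and Cyp3a11 7.13 higher (SE 0.32). Cyp4f13, Cyp4f17 and Cyp2s1 did not pass. Leaving out treated 3 took Cyp2r1, the vitamin D hydroxylase of liver, out of the calls (adjusted p 0.0802 by the same test). The difference for Cyp4f13, 0.04 with an SE of 0.51, turned to -0.03 without treated 4.

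Electron partners and regulators of the P450 genes were read from lists of 7 and 15 genes. Of 6 partners tested, 5 were higher in hepatocyte-like barcodes than in tumour cells and 1 was lower, with a median log2 difference of 1.64 beside -0.23 for all genes. Cyb5a, the microsomal cytochrome b5, stood at 2766, 2494, 2282 and 1786 CPM against 86.3, 110 and 101.1 CPM. Por, the reductase that most of these enzymes need, went the other way, at 21.4, 22.0, 38.4 and 54.7 CPM against 97.8, 99.7 and 94.1 CPM in tumour cells. The groups did not overlap for either gene. Of 10 regulators tested, 9 were higher and none lower, with a median log2 difference of 3.78. Among all genes tested, 32.9% were higher and 40.7% lower. Regulators low in tumour sums entered only through their hepatocyte-like level, so the count is a description. Hnf4a, a master factor of hepatocyte identity, stood at 343, 427, 420 and 255 CPM in hepatocyte-like barcodes and at 47.9, 47.0 and 45.8 CPM in tumour cells. Ppara and Nr1i3, the receptors known as PPARα and CAR, were close to 0 in tumour cells, at 0.0288 to 0.139 CPM and 0.0431 to 0.0556 CPM. In hepatocyte-like barcodes they stood at 91.1 to 150 CPM and 70.0 to 91.1 CPM. Arnt, the partner of the aryl hydrocarbon receptor, differed by 0.37 (SE 0.39) and did not pass.

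Other drug enzymes, which act after or beside the P450 genes, were read from a list of 17. All 16 that could be tested were higher in hepatocyte-like barcodes, beside 32.9% of all genes, with a median log2 difference of 10.75 beside -0.23. Those low in tumour sums entered only through their hepatocyte-like level. Ephx1, microsomal epoxide hydrolase, differed least, by 1.15 (SE 0.28), and Gstm1, a glutathione transferase, by 7.81 (SE 0.27). Of 15 P450 genes outside the 4 families, 5 were tested. Cyp8b1, the sterol hydroxylase that makes cholic acid, was higher, on 5 tumour UMIs. Cyp7b1 was 6.93 higher (SE 0.58), and Cyp27a1, which starts the acidic bile acid pathway, 1.91 higher (SE 0.28). Cyp20a1 was lower, on 1 hepatocyte-like UMI, and Cyp51, of cholesterol synthesis, differed by -0.23 (SE 0.29) and did not pass.

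Groups of members known from liver physiology differed in how far they were present. Of the male-biased genes of mouse liver, all 4 (Cyp2d9, Cyp4a12a, Cyp4a12b and Cyp2u1) had UMIs in hepatocyte-like barcodes, 285 in all. Of 10 female-biased genes, 2 had UMIs, 6 in all. The 5 PPARα targets of the Cyp4a subfamily, fatty acid hydroxylases, had 48 UMIs in hepatocyte-like barcodes and 0 in control tumour cells. Cyp4a12a and Cyp4a10 made up most of these, with 23 and 20 UMIs. Cyp4a12a and Cyp4a12b share 30.2% of their 3′ windows and cannot be fully separated. The Cyp2b subfamily, best known as the CAR-induced drug enzymes, had 0 UMIs in hepatocyte-like barcodes over its 5 members and 11 in tumour cells. The sums differed in depth (771567 against 196761240 UMIs), and 0 hepatocyte-like UMIs only limit a member to 3.89 CPM. The highest Cyp2b gene of tumour cells, Cyp2b10, was at 0.0356 CPM, so these counts do not rank the 2 classes. Of the aryl hydrocarbon receptor targets, Cyp1a2 alone was found in hepatocyte-like barcodes. Cyp1a1 and Cyp1b1 had none, under the same limit, and were at 0.0407 and 0.595 CPM in tumour cells.

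Pericentral Cyp2e1 and periportal Cyp2f2 were each found more often alone than together in a barcode. Of 281 hepatocyte-like barcodes in treated samples, 163 had Cyp2e1 UMIs alone, 33 had Cyp2f2 alone, 19 had both and 66 had neither. Median depth was 2068 UMIs in barcodes with Cyp2e1 alone, 1618 with Cyp2f2 alone, 4645 with both and 828 with neither, so barcodes with both were the deepest and those with neither the shallowest. The 2 smallest samples, treated 1 and treated 4, had 0 barcodes with both. Single barcodes held up to 86 Cyp2e1 UMIs. Cyp3a11, also pericentral, was found in 105 of 182 barcodes with Cyp2e1 and in 29 of 99 without. The split is a description, since UMIs per barcode are few.

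Tumour cells of the control samples expressed few P450 genes, and mostly of family 4. Their 5 highest members were Cyp4f16, Cyp3a13, Cyp4f18, Cyp4f13 and Cyp2j6. Cyp4f13 stood at 9.75, 9.38 and 9.88 CPM, Cyp2j6, an epoxygenase, at 6.56, 7.30 and 7.06 CPM, and Cyp4f17 at 3.25, 4.07 and 3.90 CPM. Each gene varied little between the 3 samples. Cyp4v3, Cyp2u1 and Cyp2a5, the coumarin hydroxylase, were at or below 1.70 CPM. Of all members, 28 had more than 3 UMIs in tumour cells and 39 had 0.

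Against immune barcodes of the same control libraries, 14 members could be tested, of which 6 were higher and 5 lower in tumour cells, beside 42.3% higher and 41.4% lower among 17124 genes. That share is near the background. Cyp3a13 was 4.69 higher on the log2 scale (SE 0.27), Cyp2j6 3.74 higher (SE 0.18), Cyp2c23 3.06 higher (SE 0.70), Cyp2u1 2.60 higher (SE 0.42), Cyp4f17 2.02 higher (SE 0.17) and Cyp2s1 1.33 higher (SE 0.16). Their adjusted p-values by edgeR's quasi-likelihood test ran from 1.30e-05 to 0.00796. Cyp4f16 was 1.01 lower in tumour cells (SE 0.05) and Cyp4f18 3.59 lower (SE 0.08). Cyp4f18 was at 16.0, 15.5 and 12.5 CPM in tumour cells. Beside it, the myeloid genes Lyz2 (329, 260 and 321 CPM) and S100a8 (831, 645 and 603 CPM) were detected in the same sums, and 56.9% of tumour barcodes held a Ptprc UMI. Their part in the Cyp4f18 level was not tested. Hnf4a, a hepatocyte factor, was 4.64 higher in tumour than in immune barcodes (SE 0.33).

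Keratin-high barcodes of treated samples had another P450 profile, which is given as values because only 2 samples had more than 20 such barcodes. Summed P450 levels were 727, 1171, 1339 and 1995 CPM in treated 1 to 4. Cyp2s1 stood at 178, 17.9, 196 and 51.7 CPM, Cyp2j6 at 84.0, 51.8, 51.4 and 82.7 CPM and Cyp2d22 at 66.7, 41.8, 60.0 and 103 CPM. All 4 samples exceeded the controls for these genes. Cyp3a13 ranged from 10.3 to 239 CPM and overlapped the controls. Cyp4f18 was at 1.92, 0, 5.00 and 0 CPM, below each control, beside Lyz2 at 16.7 to 41.4 CPM.

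These barcodes were split by Epcam and the hepatocyte markers, a split chosen after the data were seen and given without a test. The 110 with an Epcam UMI and without the hepatocyte markers held Krt19 at 1722 CPM, Cyp2s1 at 181 (165 to 198) CPM, Cyp3a13 at 168 (153 to 185) CPM, Cyp2j6 at 80.6 (70.1 to 92.3) CPM and Cyp2e1 at 1.15 (0.238 to 3.37) CPM, intervals covering counting error only. The 15 with hepatocyte markers held Cyp2e1 at 487 (425 to 555) CPM and Cyp3a11 at 89.4 (64.2 to 121) CPM, with 0 UMIs of Cyp2s1 and Krt19. That set also held Cyp3a13 at 87.3 (62.3 to 119) CPM and Cyp4f16 at 19.6 (8.98 to 37.3) CPM. The 26 with neither Epcam nor the markers held Krt19 at 875 CPM, Cyp2s1 at 190 (154 to 233) CPM, Cyp2j6 at 34.4 (20.1 to 55.1) CPM, Cyp3a13 at 26.3 (14.02 to 45.0) CPM and Cyp2e1 at 4.05 (0.490 to 14.6) CPM. Cyp2s1 and Krt19 were thus present with and without Epcam, and Cyp2e1 was high in the hepatocyte-marker set. In control tumour cells Cyp3a13 was at 19.5 CPM with Epcam and 14.7 without, and Cyp2s1 at 5.45 and 6.55 CPM. The 17 control barcodes with hepatocyte markers, 625136 UMIs in all, held 0 UMIs of Cyp2e1 and Cyp3a11 (each at most 5.90 CPM). They held Cyp3a13 at 30.4 (18.3 to 47.5) CPM, Cyp4f16 at 24.0 (13.4 to 39.6) CPM and Krt19 at 96.0 CPM. Cyp2c68 was high in treated 2 and treated 3 (307 and 232 CPM) through single barcodes. One held 280 of the 290 UMIs of the hepatocyte-marker set, and another held all 125 of the set with neither Epcam nor these markers.

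**Figure D3:**
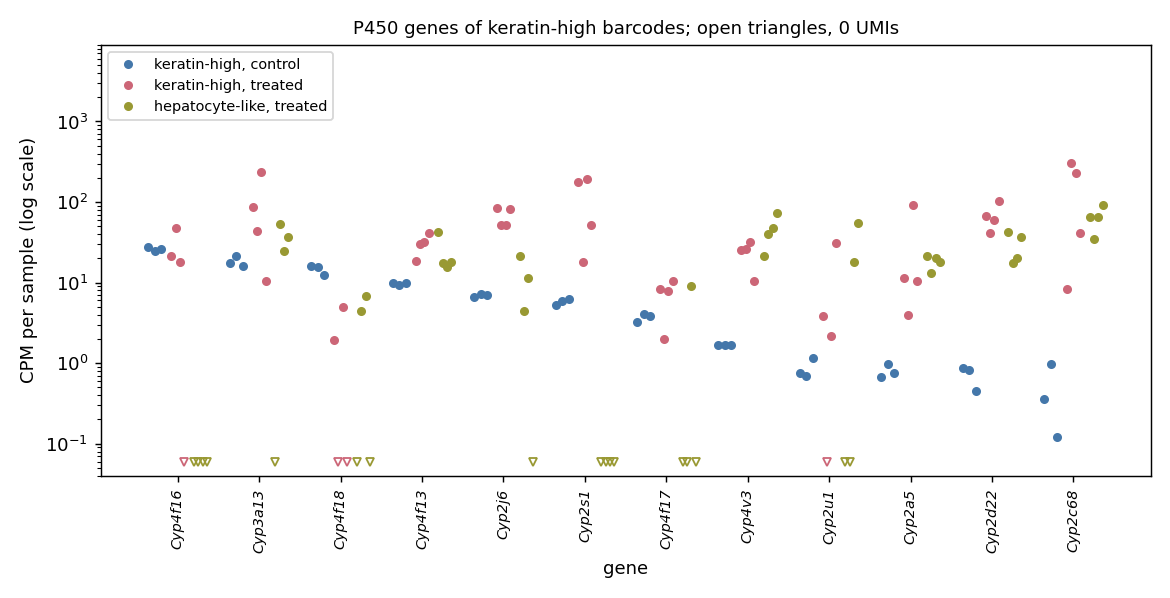
CPM per sample (log scale) of 12 P450 genes in keratin-high barcodes of control and treated samples and in hepatocyte-like barcodes of treated samples. Open triangles stand for 0 UMIs. Cyp4f16 and Cyp2s1 are at 0 in the hepatocyte-like barcodes of all 4 treated samples, and Cyp4f18 is lower in treated than in control keratin-high barcodes.

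Immune cells held the greater part of the member UMIs. Cyp4f made up 95.1% of them in controls and 62.6% in treated samples. By class it was 95.6% in control and 86.5% in treated monocytes and macrophages, 95.4% and 91.2% in neutrophils, and 93.7% and 69.1% in B cells. The summed P450 level of all immune barcodes was 304, 299 and 278 CPM in controls and 87.0, 94.9, 144 and 75.8 CPM in treated samples. Class composition differed greatly between the groups, with 6548 monocytes and macrophages and 8761 neutrophils in controls against 573 and 1502 in treated samples, and 708 NK cells and ILC1 against 18993. The levels are therefore given by class.

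Cyp4f18 was highest in myeloid cells and B cells. In basophils it stood at 563, 663 and 377 CPM in controls and 1197, 651, 471 and 543 CPM in treated samples, from 3 to 31 barcodes a sample. In monocytes and macrophages it stood at 244, 250 and 235 CPM, in neutrophils at 186, 177 and 168 CPM and in B cells at 197, 199 and 158 CPM of the controls. Neutrophils and B cells overlapped, and each monocyte sample lay above both. Dendritic cells, T cells and NK cells were lower, between 8.44 and 48.8 CPM in controls. A Cyp4f18 UMI was found in 84.6% of control monocyte and macrophage barcodes (median 11070 UMIs), and in 0.712% of hepatocyte-like barcodes (median 1645 UMIs).

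Cyp4f16 had another distribution, with dendritic cells on top. In conventional dendritic cells it stood at 126, 130 and 117 CPM in controls and 123, 54.4, 73.4 and 69.8 CPM in treated samples. Plasmacytoid dendritic cells followed in controls at 121, 92.9 and 97.7 CPM. Monocytes and macrophages had 71.6, 63.3 and 71.9 CPM, neutrophils 49.5, 40.9 and 30.4 CPM, and T cells 7.53, 8.42 and 10.9 CPM. The order from conventional dendritic cells to monocytes to T cells held in each control, without overlap. Cyp4f13 ranged from 8.49 to 33.2 CPM in controls of the 6 tested classes. Cyp4v3, whose human counterpart is a fatty acid hydroxylase of the eye, was between 0 and 14.3 CPM in the same sums.

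Each of 6 classes was tested against the mean of the other 5 over all samples, with 5 members measurable. Neutrophils had 3 members higher and none lower (34.5% and 37.6% of 11446 genes), monocytes and macrophages 3 higher and 1 lower (31.6% and 30.2%), and conventional dendritic cells 2 higher and 2 lower (26.2% and 25.2%). B cells had 1 higher and 1 lower (30.1% and 32.8%), NK cells and ILC1 none higher and 2 lower (26.5% and 25.5%) and T cells none higher and 4 lower (32.8% and 29.6%). Cyp4f18 was 3.91 higher in neutrophils (SE 0.31), 2.56 higher in monocytes and macrophages (SE 0.31) and 1.74 higher in B cells (SE 0.33). It was lower by 3.47 on the log2 scale in T cells (SE 0.48) and by 2.46 in NK cells and ILC1 (SE 0.43). Cyp4f16 was 2.46 higher in conventional dendritic cells (SE 0.19) and 1.43 higher in monocytes and macrophages (SE 0.19), and lower by 2.27 in B cells (SE 0.29). All of these had adjusted p-values of at most 2.40e-05 by edgeR's quasi-likelihood test. Cyp4f13 was 0.69 higher in neutrophils (SE 0.13) and Cyp4v3 0.94 higher in monocytes and macrophages (SE 0.19). These fits average control and treated samples, although the order of classes can differ between the groups. For Cyp4f18, monocytes and macrophages lay above neutrophils in each control and below them in each treated sample.

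Some class calls rested on single libraries. Cyp4v3 was 0.73 higher in conventional dendritic cells (SE 0.26), with an adjusted p of 0.156 without treated 1, 0.0934 without treated 2 and 0.0580 without treated 3 by edgeR's quasi-likelihood test. Cyp4f13 was lower by 0.36 in NK cells and ILC1, with an adjusted p of 0.0765 without control 1 and 0.0516 without control 2 by the same test. With either control left out, 1 member was called in NK cells and ILC1, and without treated 3 it was 2 in conventional dendritic cells. Cyp3a11, found in immune barcodes of treated samples alone, was 1.70 higher in neutrophils (SE 0.30). It was lower by 0.95 in monocytes and macrophages (SE 0.37), with an adjusted p of 0.153 without treated 1 and 0.0999 without treated 2 by the same test. In conventional dendritic cells it was lower by 1.57 (SE 0.55), with an adjusted p of 0.09998 without treated 1 and 0.265 by DESeq2.

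**Figure D4:**
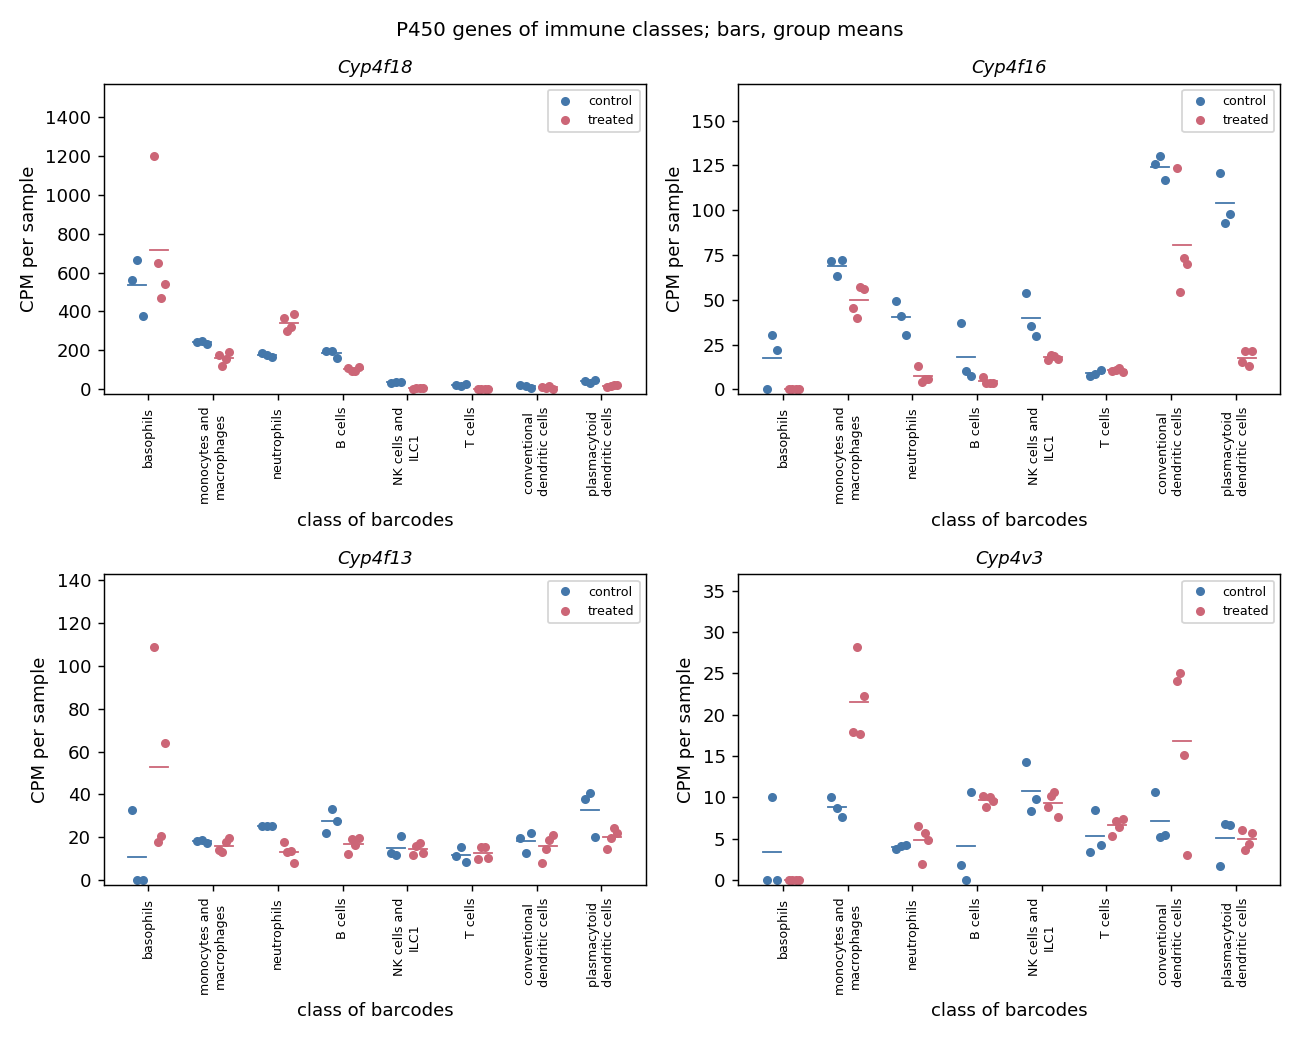
CPM per sample of Cyp4f18, Cyp4f16, Cyp4f13 and Cyp4v3 in 8 immune classes, control and treated samples as points and group means as bars. Cyp4f18 is higher in treated than in control neutrophils and lower in treated monocytes, B cells, NK cells and T cells. Basophil values rest on 3 to 31 barcodes a sample.

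The IL-2/CD25 plasmid was then compared with its absence within each class. Cyp4f18 changed in 5 of 6 classes and in both directions. In neutrophils it rose from 186, 177 and 168 CPM to 366, 299, 319 and 385 CPM, and all 4 treated samples lay above the controls. The log2 change was 0.95 (SE 0.10, adjusted p 8.14e-06 by edgeR's quasi-likelihood test). In T cells it fell from 22.2, 18.0 and 27.3 CPM to 1.18, 0.944, 1.91 and 3.56 CPM, a log2 change of -3.675 (SE 0.37, adjusted p 1.425e-05 by the same test). In NK cells and ILC1 it fell from 33.8, 37.9 and 37.1 CPM to 2.86, 5.56, 4.71 and 5.27 CPM, a log2 change of -3.05 (SE 0.21, adjusted p 2.79e-06). Neither lymphocyte class overlapped between groups.

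Smaller declines were found in B cells and monocytes. Cyp4f18 in B cells went from 197, 199 and 158 CPM to 112, 96.1, 93.2 and 114 CPM, a log2 change of -0.94 (SE 0.13, adjusted p 4.09e-05 by edgeR's quasi-likelihood test). In monocytes and macrophages it went from 244, 250 and 235 CPM to 177, 119, 158 and 193 CPM, a log2 change of -0.68 (SE 0.14, adjusted p 0.00122). The groups did not overlap in either class. In conventional dendritic cells the log2 change of -0.58 (SE 0.45) did not pass (adjusted p 0.331). Plasmacytoid dendritic cells, which had no test, stood at 43.1, 31.7 and 48.8 CPM in controls and 12.01, 17.9, 21.6 and 19.8 CPM in treated samples.

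Myeloid RNA in lymphocyte barcodes moved with the Cyp4f18 difference. Lyz2, a monocyte and neutrophil gene, was at 514, 219 and 451 CPM in control T cells and 21.5, 55.3, 42.9 and 67.7 CPM in treated T cells. In NK cells and ILC1 it was at 906, 404 and 544 CPM against 92.0, 73.3, 96.7 and 140 CPM. S100a8 in T cells was at 830, 586 and 534 CPM against 40.6, 82.3, 67.8 and 129 CPM. Free RNA was taken as the make-up of all UMIs of a sample, not of empty droplets. Its share, estimated from markers of other classes, was 6.53% to 15.2% in control and 17.05% to 25.2% in treated T cells. With it subtracted per sample, the decline of Cyp4f18 passed the test in both lymphocyte classes (T cells first, adjusted p 6.73e-05 and 0.000603 by edgeR's quasi-likelihood test). The log2 changes were then -9.09 and -7.88, against -3.675 and -3.05 without subtraction, so their size depends on it. A larger share was subtracted from treated T cells, and values that would fall below 0 were set to 0. Treated Cyp4f18 levels were already low before it. Passing therefore does not decide the part of myeloid RNA, which was not tested otherwise. In neutrophils the class itself differed: Csf3r was at 493, 425 and 499 CPM in controls and 2019, 2179, 1932 and 2041 CPM in treated samples, and a Ptprc UMI was found in 74.9% of control and 98.7% of treated neutrophil barcodes. Their part in the Cyp4f18 rise was not tested either.

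Cyp4f16 fell in 5 classes, and in T cells its change did not pass. In neutrophils it fell from 49.5, 40.9 and 30.4 CPM to 13.1, 3.99, 5.72 and 5.87 CPM, a log2 change of -2.47 (SE 0.29, adjusted p 1.39e-05 by edgeR's quasi-likelihood test). In NK cells and ILC1 it fell from 54.0, 35.5 and 29.5 CPM to 16.3, 19.1, 18.8 and 17.0 CPM (log2 change -1.23, SE 0.16, adjusted p 0.000128). In monocytes and macrophages the log2 change was -0.57 (SE 0.13, adjusted p 0.00235), with 39.9 to 57.4 CPM in treated samples, all below the controls. The B cell decline (log2 change -2.26, SE 0.52, adjusted p 0.00386) rested on control 1 at 36.8 CPM, beside 9.97 and 7.61 CPM in the other controls, and had an adjusted p of 0.223 without that sample. The decline in conventional dendritic cells (log2 change -0.70, SE 0.21, adjusted p 0.0140) was lost without treated 2 (0.0766) or treated 3 (0.0640), and treated 1 overlapped the controls. In T cells the treated samples stood at 10.1, 10.7, 11.7 and 9.59 CPM, within reach of the controls (log2 change 0.10, SE 0.22). Plasmacytoid dendritic cells, untested, stood at 15.5, 21.2, 12.8 and 21.5 CPM in treated samples against 92.9 to 121 CPM in controls. They also held Cyp2j6 at 29.3, 36.3 and 8.88 CPM in controls and at most 2.65 CPM in treated samples.

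Other members changed in single classes. Cyp4v3 rose in monocytes and macrophages from 10.1, 8.72 and 7.64 CPM to 17.9, 28.2, 17.7 and 22.3 CPM, without overlap (log2 change 1.16, SE 0.20, adjusted p 0.000392 by edgeR's quasi-likelihood test). Beside it Lyz2 stood at 11570 to 16370 CPM in treated against 5608 to 6900 CPM in control samples of the same class, and S100a8 at 34.03 to 425 CPM against 1142 to 2446 CPM. Their part in the result was not tested. Cyp4f13 fell in neutrophils from 25.2, 25.4 and 25.1 CPM to 17.7, 13.0, 13.4 and 7.83 CPM (log2 change -0.95, SE 0.21, adjusted p 0.00147). In B cells its log2 change of -0.75 (SE 0.27) had an adjusted p of 0.0460, and ranged up to 0.202 with control 2, control 3, treated 1 or treated 3 left out.

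Cyp2d22 rose in both lymphocyte classes. In T cells it went from 0, 1.20 and 1.21 CPM to 3.39, 4.72, 4.54 and 3.99 CPM (log2 change 2.56, SE 0.63, adjusted p 0.00539 by edgeR's quasi-likelihood test). In NK cells and ILC1 it went from 0, 1.19 and 1.09 CPM to 2.50, 3.18, 3.14 and 3.33 CPM (log2 change 1.79, SE 0.54, adjusted p 0.0185). The groups did not overlap in either class. Control sums of these classes held 831606 to 2532365 UMIs, so their levels rest on very few Cyp2d22 UMIs. Alb, a hepatocyte gene, stood at 16.1, 32.5, 113 and 5.71 CPM in the treated T cell sums. The part of RNA from hepatocytes or other cells in the rise was not tested separately. With free RNA subtracted, the T cell change was 2.25 and passed (adjusted p 0.0245), and the NK cell change was 1.26 and did not (adjusted p 0.157). The NK cell call was also lost without control 1 (adjusted p 0.0766).

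Whether the change differed between classes was tested as the change in 1 class minus the mean change of the other 5, with 8 members tested per class. Cyp4f18 differed in 5 classes, with a log2 difference of 2.75 in neutrophils (adjusted p 5.30e-16 by edgeR's quasi-likelihood test) and -2.79 in T cells (4.96e-08). Members called, of either direction, were 1 in B cells beside 11.5% of genes, 0 in conventional dendritic cells beside 14.8%, 2 in monocytes and macrophages beside 22.7%, 3 in neutrophils beside 40.2%, 2 in NK cells beside 17.1% and 2 in T cells beside 21.7%. In conventional dendritic cells 1 member had an unadjusted p under 0.05.

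The number of members called in each class stood beside the following backgrounds. In T cells 1 of 9 tested members was higher and 1 lower, beside 23.3% and 26% of 13131 genes. In NK cells and ILC1 it was 1 and 2 of 12, beside 24.3% and 23.1% of 14980. In B cells it was 0 and 3 of 4, beside 11.3% and 15.9% of 9899, and in monocytes and macrophages 1 and 2 of 4, beside 27.5% and 27.9% of 9755. In neutrophils it was 1 and 2 of 3, beside 31.8% and 35.4% of 8065, and in conventional dendritic cells 0 and 1 of 3, beside 19.3% and 20.6% of 7008. The counts are too small to be read against these shares. In B cells 1 member was called without treated 1 or treated 3, when Cyp4f13 did not pass and Cyp4f16 was not among the genes tested. In conventional dendritic cells the count was 0 without treated 2 and 2 without control 1 or treated 4. Of the electron partners, 6 of 7 were lower and 1 higher in treated neutrophils. Among the other classes 4 of 7 were lower in T cells, 4 of 7 in monocytes and macrophages, 3 of 7 in NK cells and ILC1 and 1 of 7 in B cells, with none higher. In conventional dendritic cells 2 of 6 were lower and 1 higher. The higher one was Por in both classes, by 0.96 in neutrophils (SE 0.09) and 0.74 in conventional dendritic cells (SE 0.26).

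Hepatocyte-type members were also counted in immune barcodes, in treated samples. Cyp3a11 stood at 4.50, 2.86, 16.5 and 0.277 CPM in all immune barcodes of treated 1 to 4, and at 0 in each control, of 129174242 immune UMIs. Cyp2e1 stood at 1.498, 2.13, 9.93 and 0.346 CPM in the same sums, against 0.0225 to 0.0590 CPM in controls. Both were highest in treated 3, which had the most hepatocyte-like barcodes (143), and lowest in treated 4, which had the fewest (20). Between these ends Cyp3a11 did not follow the barcode numbers. Treated 1, with 22 such barcodes, lay well above treated 4 and also above treated 2, which had 96. Alb was likewise highest in treated 3 and lowest in treated 4, at 18.4, 33.4, 115 and 7.74 CPM. A Cyp3a11 UMI was found in 2.24% of treated NK cells (median 3758 UMIs), 2.36% of T cells (4195 UMIs), 2.50% of B cells (2770 UMIs) and 2.60% of neutrophils (2417 UMIs). The share was 47.7% in hepatocyte-like barcodes (1645 UMIs). It was 3.32% in plasmacytoid dendritic cells (6986 UMIs) and 1.92% in monocytes and macrophages (7788 UMIs). Depth differed between the immune classes, so the shares are not levels. Neither expression nor the part of free RNA in these shares was tested. Cyp3a11 did not pass between treated and control in T cells (adjusted p 0.0919 by edgeR's quasi-likelihood test), nor did it in the NK cell class (0.153).

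The 2 transcripts did not stand in one ratio. Cyp3a11 had 0.425 UMIs per Cyp2e1 UMI in hepatocyte-like barcodes (95% counting interval 0.384 to 0.470), and 1.73 (1.54 to 1.94) in immune barcodes of the same samples. The immune ratio was 3.00 in treated 1, 1.34 in treated 2, 1.67 in treated 3 and 0.8 in treated 4, and the hepatocyte-like ratio was 0.317, 0.469, 0.401 and 0.712. Intervals were apart in treated 1, treated 2 and treated 3 and overlapped in treated 4, which had 12 and 15 immune UMIs. Against Cyp2c70 the ratio was 3.04 (2.57 to 3.62) in hepatocyte-like and 7.60 (6.22 to 9.36) in immune barcodes. Across immune classes Cyp3a11 per Cyp2e1 was 1.43 in B cells, 1.65 in T cells, 1.82 in the NK cell class and 3.15 in neutrophils. The neutrophil interval (1.66 to 6.42) overlapped those of the other 3 classes.

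**Figure D5:**
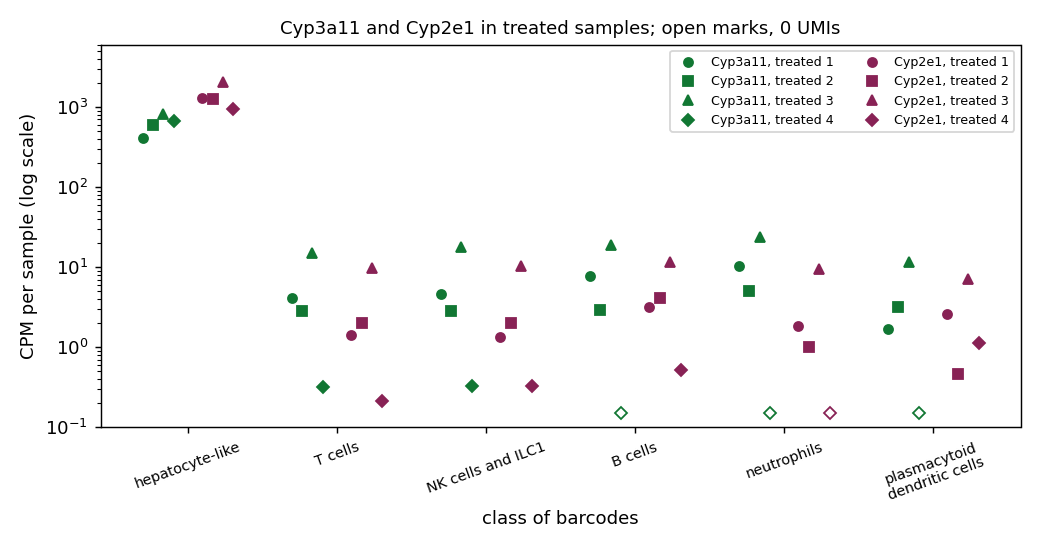
CPM per sample (log scale) of Cyp3a11 and Cyp2e1 in hepatocyte-like and 5 immune classes of the 4 treated samples, each sample with its own mark and 0 UMIs as open marks. Cyp2e1 lies above Cyp3a11 in hepatocyte-like barcodes, and Cyp3a11 lies above Cyp2e1 in the T, NK and B cells and neutrophils of treated 1 and treated 3. Treated 3 is highest in every immune class shown.

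Stromal classes were small, and their members were chosen after their values were seen and are given without a test. Cyp4b1, known for activating lung and bladder toxins, led in endothelial cells, at 193, 278, 216 and 54.9 CPM in treated samples and 53.9, 43.1 and 201 CPM in controls. The 2 groups overlapped, and the samples held 3 to 95 barcodes. Cyp1b1, an aryl hydrocarbon receptor target, stood at 65.9, 455 and 106 CPM in control stellate cells and at 30.8, 0, 13.7 and 0 CPM in treated ones. Cyp2s1 went the other way there, from 29.3, 15.2 and 7.57 CPM to 154, 417, 199 and 106 CPM. Beside it, Krt19 stood at 564 to 1059 CPM in treated stellate barcodes and at 0 to 70.6 CPM in controls, with Epcam at 0 throughout. Stellate sums held 2 to 29 barcodes a sample, so single barcodes weigh heavily, and the part of Krt19-positive barcodes was not tested.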

How the data were processed

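Single-cell suspensions were sequenced as 3′ libraries (10x Chromium v3.1), with Cell Ranger 7.0.0 and bcl2fastq 5.0.1 named per the submitters' processing notes. The genome build is not given in the sources used here. The deposited matrices hold raw UMI counts per gene and barcode, unnormalized. From them, UMIs were summed per sample and class. Sums of at least 20 barcodes were tested with edgeR (TMM, filterByExpr, quasi-likelihood test, Benjamini-Hochberg over all genes, threshold 0.05), with the sample as block where classes of 1 library were compared. Classes other than hepatocyte-like and keratin-high needed at least 3 markers detected and a lead of 10 percentage points over the next class. Tools were R 4.3.3, edgeR 4.0.16, DESeq2 1.42.0 and Python 3.11.15. On simulated counts with 4-fold changes in 100 genes up and 100 down, the hepatocyte-like against tumour step found 89 and 69 among 5635 genes, with 6 false calls.

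Genes named are the 20 highest members of hepatocyte-like barcodes, the 10 highest of control tumour cells, up to 4 per immune class and members called there. Members and lists were chosen with earlier results of these data known. Doublets were left in and removed as an alternative. Intervals cover counting error only.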

Additional observations from a re-analysis of the deposited data

Results flagged for a closer look

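In 5 of 72 sets of 4 treated samples, 1 sample lay far from the others by Dixon's criterion, about what chance gives (1 in 20). Cyp4f16 in B cells was 7.02 CPM in treated 1, with the next sample at 3.70 CPM. Cyp3a13 in basophils was 109 CPM in treated 1, which is 1 UMI in 3 barcodes. Cyp2u1 in keratin-high barcodes was 31.01 CPM in treated 4, from 5 barcodes, with the next at 3.85 CPM. Cyp2a5 in keratin-high barcodes was 92.2 CPM in treated 3, with the next at 11.6 CPM. Cyp2e1 in NK cells and ILC1 was 10.3 CPM in treated 3, with the next at 2.02 CPM.

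The change with the IL-2/CD25 plasmid differed between immune classes for 10 of 48 combinations of member and class, tested as in the report (a test added after the data were seen, edgeR's quasi-likelihood test with Benjamini-Hochberg adjustment over 12566 genes). Among all genes the share called ran from 11.5% in B cells to 40.2% in neutrophils. For Cyp4f18 the log2 difference was 2.75 in neutrophils (adjusted p 5.30e-16), 0.74 in monocytes and macrophages (0.00108), 0.59 in B cells (0.0461), -2.18 in NK cells and ILC1 (3.50e-08) and -2.79 in T cells (4.96e-08). For Cyp4f16 it was 1.63 in T cells (0.000357), 0.72 in monocytes and macrophages (0.0150) and -1.53 in neutrophils (0.000592). For Cyp4f13 it was -0.64 in neutrophils (0.0344), and for Cyp4v3 -1.11 in NK cells and ILC1 (0.0221). All these values are relative to the mean change of the other 5 classes. Cyp4f18 itself fell in monocytes and macrophages and in B cells. Cyp4f16 also fell in monocytes and macrophages, and its change in T cells did not pass.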

How the results depend on the processing

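The 95 gene results had 706 values under alternative settings, of which 689 kept direction and side of the threshold and 17 lost the call, and 515 values with 1 sample left out, of which 17 lost the call and 2 changed sign (Cyp4f13, hepatocyte-like against immune, -0.033 without treated 4 and up to 0.34 without treated 1, and Cyp3a13, hepatocyte-like against tumour, -0.12 without treated 2 and up to 0.81 without treated 3). Without a low-count filter the number of members called was 42 for hepatocyte-like against tumour, 18 for tumour against immune, 14 for treated against control in monocytes and macrophages, 11 in neutrophils, 8 in T cells, 5 in NK cells and ILC1 and 4 in conventional dendritic cells, and for class against class 10 in neutrophils, 7 in T cells and 5 each in B cells and NK cells. More members were then tested. With DESeq2, 5 members were called in NK cells and ILC1 and 4 in T cells. In B cells 1 was called with doublets removed, with free RNA subtracted or with a larger lead between classes (chosen after seeing the data). With that lead 1 was called for conventional dendritic cells against other classes, and treated against control there could not be fitted. The cause was not tested for DESeq2 and the class settings. With 1 sample left out the counts ran from 21 to 26 for hepatocyte-like against tumour, 22 to 30 for hepatocyte-like against immune and 11 to 14 for tumour against immune. For treated against control they ran from 2 to 3 in T cells, 2 to 4 in NK cells, 1 to 3 in B cells, 3 to 4 in monocytes, 3 to 4 in neutrophils and 0 to 2 in conventional dendritic cells. For class against class they ran from 4 to 4 in T cells, 1 to 3 in NK cells, 2 to 3 in B cells, 3 to 4 in monocytes, 2 to 3 in neutrophils and 2 to 4 in conventional dendritic cells.

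With the replicate number as a block, T cells had 4 members called, and 4 were called among NK cells and ILC1, where the Cyp2d22 call was lost (adjusted p 0.0509 by edgeR's quasi-likelihood test). Counts in the other 4 classes were those without the block. The numbers did not pair the samples, with correlations of same-number deviations from -0.249 to 0.0139.

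Hepatocyte-like sums held 771567 UMIs in all, so a member without a UMI there is limited to 3.89 CPM, against 0.0153 CPM in control tumour cells. Hepatocyte-like and tumour cells came from different plasmid groups. Class make-up, depth and free RNA (6.04% to 25.2% of immune sums in controls, 3.66% to 32.9% in treated samples) differed between groups.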

Other observations

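Control samples held 4 hepatocyte-like barcodes with 3363 UMIs in all, which entered no comparison. They held 6 P450 UMIs, of which 2 were Cyp2d9 and 1 each Cyp3a11 and Cyp2a12. Alb made up 53 UMIs. Kupffer-like barcodes, assigned by markers of liver-resident macrophages, numbered 10 in controls and 15 in treated samples and held 2 and 10 P450 UMIs. Barcodes without a class held 12.55% of the member UMIs in controls and 8.004% in treated samples.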
